A study of Mus musculus with 10 samples.

Results

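The genes described here are 10 genes of developing B lymphocytes, chosen by name: Vpreb1, Vpreb3, Igll1, Rag1, Rag2, Dntt, Cd79a, Cd79b, Pax5 and Ebf1. They were taken from 35705 genes measured in mouse knee cartilage, and all 10 were among the 13841 genes that reached a mean of 1 TPM (a relative level that allows for transcript length). The first 6 are used mainly by pro-B and pre-B cells and are called precursor genes below. The other 4 are used through most of the B lineage and are called pan-B genes. RNA was sequenced from articular cartilage of the medial knee of 10 mice, 1 library per mouse, 5 from wild-type control mice and 5 from Mir324-null mice, which lack the gene of the microRNA miR-324. The mice were untreated, and the labels do not state their age, sex, strain or litter, nor how the null allele was made. The comparison asked which transcripts differ in joint tissue without this microRNA, in a study of its part in bone-forming and bone-resorbing cells.

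B lymphocytes are made in the bone marrow, where pro-B cells join gene segments of the immunoglobulin heavy chain with the RAG recombinase. A successful heavy chain pairs with a surrogate light chain, built from the Vpreb1 and Igll1 proteins, to form the pre-B receptor. That receptor signals through the Cd79a and Cd79b proteins, drives cell division, and is followed by rearrangement of the light chain genes in small pre-B cells. The transcription factors Ebf1 and Pax5 set up and hold the B cell programme. Chondrocytes, the cells named in the labels, make and keep the cartilage matrix.

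The libraries held transcripts of marrow beside those of cartilage. Of 9 cartilage markers, 7 reached the level needed for testing. The wild-type and null means of these 7 ran from 10.1 and 5.46 TPM for Sox9 to 2902 and 1737 TPM for Prg4. Acan had means of 146 and 72 TPM, and Col2a1 of 91.4 and 59 TPM. Below the level needed, the collagen gene Col9a1 lay between 0.117 and 0.953 TPM and the matrix gene Matn3 between 0 and 0.822 TPM. The 7 erythroid markers summed to between 112640 and 263631 TPM per library. Leukocyte genes such as Ptprc, a surface phosphatase of all white blood cells, had a mean of 102 ± 23.9 TPM (SD, n = 5) in the wild-type group and 106 ± 19.6 TPM in the null group. Read depth is unknown, because TPM carries no counts. In such bulk samples, fewer cells of a type and less RNA per cell cannot be told apart.

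Where these genes start, 5 of their promoters are shown, because the lettered motifs in them are those of factors that act in the B lineage. They are the 250 bases before the RefSeq start in GRCm38.p6, read 5′ to 3′ on the gene's own strand. This start can differ from the GENCODE gene bounds given below. The windows of Vpreb1 and Vpreb3 lie inside those bounds, and that of Cd79a runs past the GENCODE start. Capitals mark the E-box CAGGTG, which E proteins such as Tcf3 can bind, here read on either strand. Its other strand reads CACCTG. In Vpreb3 they mark the octamer ATGCAAAT, which Oct factors can bind, and whose other strand reads ATTTGCAT.
Vpreb1, chr16:16869256-16869505, minus strand: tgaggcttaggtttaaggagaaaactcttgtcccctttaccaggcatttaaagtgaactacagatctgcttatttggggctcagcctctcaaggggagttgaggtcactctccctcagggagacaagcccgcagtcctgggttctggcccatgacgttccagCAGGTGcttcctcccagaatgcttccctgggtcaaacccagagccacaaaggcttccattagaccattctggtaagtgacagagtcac
Igll1, chr16:16863986-16864235, minus strand: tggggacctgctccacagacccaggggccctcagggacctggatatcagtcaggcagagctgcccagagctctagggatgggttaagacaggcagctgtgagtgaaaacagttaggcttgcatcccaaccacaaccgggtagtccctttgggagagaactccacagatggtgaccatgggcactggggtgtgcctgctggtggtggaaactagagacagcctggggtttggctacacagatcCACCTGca
Rag1, chr2:101649533-101649782, minus strand: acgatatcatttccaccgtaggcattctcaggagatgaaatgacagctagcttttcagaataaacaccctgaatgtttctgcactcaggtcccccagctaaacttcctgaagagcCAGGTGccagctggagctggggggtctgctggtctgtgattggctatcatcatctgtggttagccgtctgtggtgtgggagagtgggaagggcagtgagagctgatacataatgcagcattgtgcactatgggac
Cd79a, chr7:24897247-24897496, plus strand: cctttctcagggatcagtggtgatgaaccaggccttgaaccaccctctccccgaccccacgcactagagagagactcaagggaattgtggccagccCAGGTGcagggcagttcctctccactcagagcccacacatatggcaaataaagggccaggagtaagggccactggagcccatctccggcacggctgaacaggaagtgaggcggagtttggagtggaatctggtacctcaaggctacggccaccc
Vpreb3, chr10:75948050-75948299, plus strand: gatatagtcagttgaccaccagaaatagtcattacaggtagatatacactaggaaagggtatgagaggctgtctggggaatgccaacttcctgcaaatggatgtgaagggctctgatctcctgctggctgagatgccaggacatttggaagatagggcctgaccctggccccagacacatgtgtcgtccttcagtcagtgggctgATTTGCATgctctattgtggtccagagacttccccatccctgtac

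RefSeq promoters were matched for 9 of the 10 genes, and Ebf1 had 2 windows. The E-box stood in 4 of these 9 genes, Vpreb1, Igll1, Rag1 and Cd79a, and in 17.2% of 32817 promoter windows of the same length. It lay 88 to 83 bases before the start in Vpreb1, 8 to 3 bases before it in Igll1, 135 to 130 bases before it in Rag1 and 154 to 149 bases before it in Cd79a. The octamer stood in Vpreb3 alone among the 9, at 45 to 38 bases before the start, and in 1.6% of all windows. Other motifs were searched on both strands in the same way. CCCNNGGG, a pair of half-sites of the kind that Ebf1 binds, stood in Igll1 alone (11.8% of windows). GGAAGT, of the ETS kind, stood in Vpreb3, Rag1, Cd79a and Ebf1 (19.7% of windows). TGTGGT, of the RUNX kind, stood in Vpreb3, Igll1, Rag1 and Ebf1 (14% of windows). A match of letters is a description and not a site shown to be bound.

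Pairs of these genes are neighbours in the genome. Igll1 (ENSMUSG00000075370, chromosome 16, 16860671 to 16863985) and Vpreb1 (ENSMUSG00000059305, chromosome 16, 16868403 to 16870843) lie 4417 bases apart on the minus strand. Rag2 (ENSMUSG00000032864, chromosome 2, 101624718 to 101632529) and Rag1 (ENSMUSG00000061311, chromosome 2, 101638282 to 101649501) lie 5752 bases apart and point towards each other. These positions are those of GRCm38 in GENCODE M21.

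Vpreb1 has a near copy, Vpreb2 (ENSMUSG00000059280, chromosome 16, 17980428 to 17981273), and reads of the copies can be confused. Their coding sequences of 426 bases differ at 9 positions (97.9% identity), and the longest identical run is 196 bases. The stretch from coding base 238 to 387 is shown because it holds 6 of the 9 differences, which are in capitals.
Vpreb1: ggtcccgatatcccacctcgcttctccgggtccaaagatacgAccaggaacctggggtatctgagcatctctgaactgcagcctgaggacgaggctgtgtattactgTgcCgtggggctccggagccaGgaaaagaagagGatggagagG
Vpreb2: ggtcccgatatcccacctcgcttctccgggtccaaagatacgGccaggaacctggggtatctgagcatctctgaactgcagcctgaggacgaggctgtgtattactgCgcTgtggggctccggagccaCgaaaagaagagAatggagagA

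All 10 genes had a lower mean on the log2(TPM + 1) scale in null mice, and 0 of the 10 passed adjustment over all genes tested. The changes ran from -0.70 for Vpreb3 to -0.066 for Dntt. Their median was -0.44, against -0.045 for all genes tested. A lower estimate was common in these libraries, at 60.0% of all genes tested. In limma with Benjamini-Hochberg adjustment over the 13841 genes, 0 genes had an adjusted p under 0.05 (0% of those tested), and the smallest adjusted p of the 10 was 0.287. An unadjusted limma p under 0.05 was found for 5 of the 10, all lower in null mice, against 7.30% of all genes that were lower at that threshold. They were Vpreb3, Rag1, Cd79a, Cd79b and Pax5. The exact permutation test over mice gave a p under 0.05 for 2 of them, Vpreb3 and Cd79b. In none of the 10 genes did the 5 null mice lie entirely below the 5 wild-type mice, which happened in 1.06% of all genes tested. Nothing in the labels says that the mice of a genotype were unrelated, so the p-values measure the spread between these mice. The 10 genes were chosen with earlier results of these data known, and pairs of them varied together. The counts set against the shares of all genes are therefore no test of the 10 as a set.

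**Figure D1:**
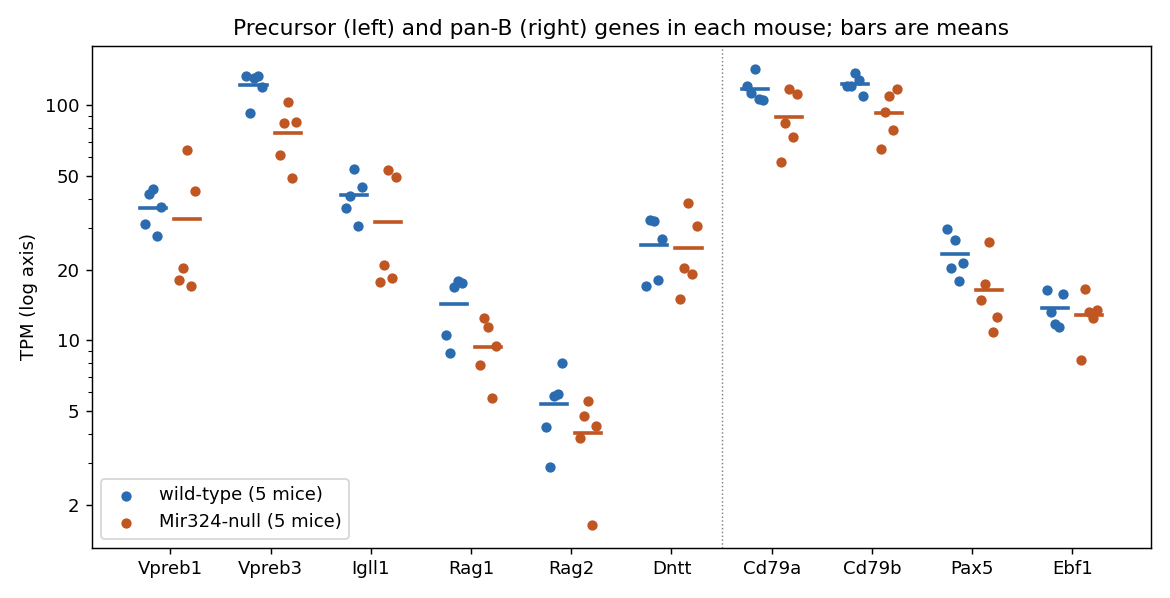
TPM on a log axis for each of the 10 genes, with 1 point per mouse, wild-type in blue and Mir324-null in orange, and bars for the group means. The groups overlap in every gene, and the null mice are split in Vpreb1 and Igll1, where 3 mice lie at 17.1 to 21.0 TPM and 2 at 43.2 to 64.6 TPM.

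The genes of the surrogate light chain differed widely among the null mice. Vpreb1, its variable part, stood at 31.2, 42.0, 44.2, 27.7 and 37.0 TPM in wild-type mice 1 to 5. In null mice 1 to 5 it stood at 18.0, 20.4, 64.6, 17.1 and 43.2 TPM. Null mice 1, 2 and 4 lay below every wild-type mouse, while null mouse 3 lay above every one of them. The means were 36.4 ± 7.01 and 32.7 ± 20.9 TPM (SD, n = 5), a log2 change of -0.34 with an SE of 0.333 (limma adjusted p = 0.778, exact permutation p = 0.413). The interval of this change, from -1.06 to 0.39, spans 0. The highest null mouse had 3.78 times the Vpreb1 of the lowest, against 1.6 times among wild-type mice.

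Igll1, also called lambda 5 and the constant part of the surrogate light chain, followed Vpreb1 mouse by mouse. It stood at 36.5, 41.1, 53.8, 30.7 and 44.7 TPM in wild-type mice 1 to 5, and at 17.7, 21.0, 52.8, 18.5 and 49.7 TPM in null mice 1 to 5. Again null mice 1, 2 and 4 lay below all wild-type mice and null mice 3 and 5 lay within their range. The change was -0.50 (SE 0.311, limma adjusted p = 0.585, exact permutation p = 0.183). The ratio of Igll1 to Vpreb1 TPM stayed between 0.818 and 1.22 in the 10 mice. Vpreb2 was lower in level than Vpreb1, with means of 4.51 ± 1.24 and 3.67 ± 2.34 TPM (SD, n = 5) in the same order and a change of -0.35.

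Vpreb3 (ENSMUSG00000000903, chromosome 10, 75943057 to 75949657) encodes a related protein that binds newly made immunoglobulin chains inside the cell. It stood at 133, 92.8, 131, 133 and 119.5 TPM in wild-type mice 1 to 5. In null mice 1 to 5 it stood at 61.4, 84.0, 103, 49.0 and 85.1 TPM. All null mice but mouse 3 lay below the lowest wild-type mouse, and null mouse 3 overlapped with wild-type mouse 2 alone. The means were 122 ± 17.3 and 76.4 ± 21.2 TPM (SD, n = 5), so that the null mean was 62.7% of the wild-type mean. The change was -0.70 (SE 0.186, limma adjusted p = 0.287, exact permutation p = 0.0159). It had the largest change of the 10 genes and failed the correction.

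The genes of the recombinase, Rag1 and Rag2, followed another order of mice. Rag1 encodes the cutting subunit of the recombinase that joins immunoglobulin gene segments. It stood at 10.5, 8.80, 16.8, 17.9 and 17.6 TPM in wild-type mice and at 7.87, 12.5, 11.4, 5.69 and 9.43 TPM in null mice. All 5 null mice lay below the wild-type mean, and 2 of them lay below the lowest wild-type mouse. The change was -0.55 (SE 0.237, unadjusted p = 0.0381 and adjusted p = 0.407 in limma, exact permutation p = 0.0794).

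Rag2, the partner subunit of the recombinase, had the lowest level of the 10 genes. It stood at 4.26, 2.88, 5.78, 5.89 and 8.02 TPM in wild-type mice and at 3.84, 4.78, 5.54, 1.64 and 4.33 TPM in null mice. Only null mouse 4 lay below the wild-type range. The change was -0.35 (SE 0.272, limma adjusted p = 0.687, exact permutation p = 0.31).

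Dntt (ENSMUSG00000025014, chromosome 19, 41029275 to 41059525) encodes terminal transferase, which adds bases at the joints of heavy chain segments in pro-B cells. It stood at 17, 32.6, 32.3, 18.1 and 27.1 TPM in wild-type mice and at 15.0, 20.4, 38.2, 19.2 and 30.5 TPM in null mice. The ranges of the genotypes nearly coincided, with null mouse 3 the highest of the 10 mice. The change was -0.066 (SE 0.261, limma adjusted p = 0.961, exact permutation p = 0.841), with an interval from -0.64 to 0.50. Of its 3 transcripts, the one named ENSMUST00000112200 held between 43.3% and 84.2% of the gene's TPM in each mouse. Rag1, Rag2 and Dntt are also used by T cell precursors in the thymus. T cell genes were present, with wild-type means of 18.1 TPM for Trbc2, 9.52 TPM for Trac and 9.07 TPM for Cd3d, and 12 of the 14 listed reached a mean of 1 TPM. Of the 2 that did not, Ptcra, which marks the thymic precursors, lay between 0.0631 and 0.308 TPM in the 10 libraries, and the T lineage factor Bcl11b between 0.136 and 0.707 TPM. The part of T lineage cells in the levels of Rag1, Rag2 and Dntt was not tested.

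The pan-B genes that encode the signalling chains were the most even among wild-type mice. Cd79a (ENSMUSG00000003379, chromosome 7, 24897381 to 24902197) stood at 121, 113, 143, 106 and 105 TPM in wild-type mice and at 57.5, 84.1, 117, 73.6 and 112 TPM in null mice. Null mice 1, 2 and 4 lay below every wild-type mouse, and null mice 3 and 5 lay among them. The change was -0.44 (SE 0.181, unadjusted p = 0.0331 and adjusted p = 0.389 in limma, exact permutation p = 0.0873).

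Cd79b (ENSMUSG00000040592, chromosome 11, 106311341 to 106314762), its partner in the receptor, stood at 121, 121, 137, 128 and 109 TPM in wild-type mice and at 65.1, 93.7, 109, 78.4 and 117 TPM in null mice. The same 3 null mice, 1, 2 and 4, lay below the wild-type range. The change was -0.44 (SE 0.148, unadjusted p = 0.0127 and adjusted p = 0.338 in limma, exact permutation p = 0.0238). Cd79a and Cd79b were close in level in every mouse, with a ratio of 0.822 to 1.06.

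Pax5 (ENSMUSG00000014030, chromosome 4, 44524757 to 44710487), the factor that commits cells to the B lineage, stood at 29.8, 20.3, 26.7, 17.8 and 21.3 TPM in wild-type mice. In null mice it stood at 14.9, 17.4, 26.3, 10.8 and 12.6 TPM. All null mice but mouse 3 lay below the lowest wild-type mouse. The change was -0.52 (SE 0.216, unadjusted p = 0.0347 and adjusted p = 0.392 in limma, exact permutation p = 0.0714). In wild-type mouse 1, a single transcript, ENSMUST00000173821, held 13.7 of the 29.8 TPM, while in the other 9 mice it reached at most 2.32 TPM.

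Ebf1 (ENSMUSG00000057098, chromosome 11, 44617317 to 45008091), which acts before Pax5, stood at 16.4, 13.2, 11.7, 11.4 and 15.8 TPM in wild-type mice and at 8.21, 16.5, 13.2, 12.5 and 13.4 TPM in null mice. Only null mouse 1 lay outside the wild-type range on the low side. The change was -0.11 (SE 0.17, limma adjusted p = 0.875, exact permutation p = 0.603). Ebf1 is also used by marrow stroma and fat cells. Among all genes tested 60% were lower, with a median change of -0.045. Of 9 stroma niche genes tested, 7 were lower in null mice with a median change of -0.22. The smallest p among the stroma niche genes was that of Pdgfrb on the lower side (-0.44) and Igfbp5 on the higher (0.16). Of 8 adipocyte genes 8 were lower with a median of -0.52, though Pparg (-0.0088) and Cebpa (-0.028) barely so. Fabp4 had the smallest p (-0.67). The part of stroma and fat cells in the Ebf1 level was not tested.

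By level in wild-type mice, Cd79b, Vpreb3 and Cd79a came first at 123, 122 and 117 TPM and did not differ beyond their spread. Igll1 and Vpreb1 followed at 41.3 and 36.4 TPM, Dntt and Pax5 at 25.4 and 23.2 TPM, and Rag1 and Ebf1 at 14.3 and 13.7 TPM. Each of these pairs lay within the spread between mice. Rag2 came last at 5.37 TPM. Together the 10 genes held 0.0523% ± 0.00464 of a wild-type library's TPM and 0.039% ± 0.0118 of a null library's (SD, n = 5), with null mice 1 and 4 lowest at 0.0269% and 0.0286%.

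Precursor and pan-B genes were set against each other to ask whether early stages stood apart from the B lineage as a whole. The median change was -0.43 over the 6 precursor genes and -0.44 over the 4 pan-B genes, a difference of 0.01. Per mouse, the mean log2(TPM + 1) of the precursor genes minus that of the pan-B genes was -1.17, -0.89, -0.64, -0.71 and -0.53 in wild-type mice 1 to 5. In null mice 1 to 5 it was -0.80, -0.99, -0.55, -1.20 and -0.61. The ranges overlapped almost fully, and the group means of -0.79 and -0.83 differed by -0.042, within the SD of 0.249 and 0.271 (n = 5). The changes ran from -0.70 to -0.066 among the precursor genes and from -0.52 to -0.11 among the pan-B genes, so that each set held 1 gene, Dntt or Ebf1, with a change close to 0. No p is given for these averages, since the genes were chosen together.

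Among the precursor genes, the level of one did not always follow that of another. Over the 10 mice, Vpreb1 and Igll1 varied together (log2 values, Pearson r = 0.96, permutation p = 2e-05, Spearman rho = 0.964, permutation p = 6e-05). So did Rag1 and Rag2 (r = 0.909, permutation p = 0.00014, rho = 0.952, permutation p = 0.00015). Adjusted over the 45 pairs of the 10 genes, the p-values of r were 0.0009 and 0.0021, and those of rho 0.0027 and 0.00337. Without the 2 mice farthest from the median of the first gene, r was 0.983 and 0.871. Between the pairs r was lower, and its difference from the r within pairs was not tested. Vpreb1 and Rag1 gave r = 0.398 (permutation p = 0.251, adjusted 0.332) and rho = 0.333 (permutation p = 0.346, adjusted 0.519), with r = 0.222 without the 2 farthest mice. The r was 0.471 for Vpreb1 and Rag2, 0.498 for Igll1 and Rag1, and 0.53 for Igll1 and Rag2 (adjusted permutation p = 0.256, 0.228 and 0.186). Dntt went with Vpreb1 (r = 0.875, permutation p = 0.00132, adjusted 0.0109, rho = 0.818, permutation p = 0.00578, adjusted 0.045, r = 0.863 without the 2 farthest mice). With Rag1 it gave r = 0.225 (permutation p = 0.526, adjusted 0.54) and rho = 0.139 (permutation p = 0.709, adjusted 0.818), and r = 0.327 without the 2 farthest mice. With each value taken as its deviation from the genotype mean, r was 0.968 for Vpreb1 and Igll1, 0.92 for Rag1 and Rag2, 0.893 for Vpreb1 and Dntt, and 0.294 for Vpreb1 and Rag1. These pairs were picked after their values were seen, and all values of a mouse come from 1 library, with its mix of cells and its scaling.

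**Figure D2:**
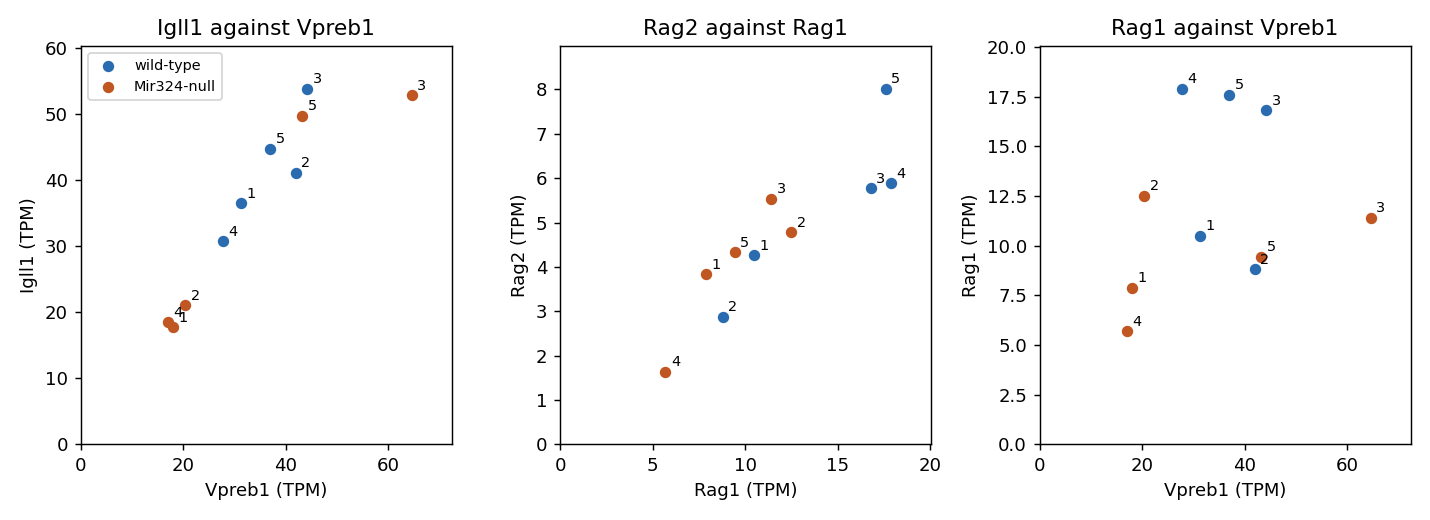
TPM of pairs of genes in the 10 mice, numbered by mouse, wild-type in blue and Mir324-null in orange. High Igll1 goes with high Vpreb1 and high Rag2 with high Rag1, while Rag1 against Vpreb1 is scattered, with null mouse 3 at 64.6 TPM of Vpreb1 and 11.4 TPM of Rag1.

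The ratio of Rag1 to Vpreb1 TPM shows the same scatter in plain values. It was 0.336, 0.21, 0.381, 0.647 and 0.475 in wild-type mice 1 to 5, and 0.438, 0.611, 0.176, 0.333 and 0.218 in null mice 1 to 5. The genotypes overlapped, at 0.41 ± 0.164 and 0.355 ± 0.176 (SD, n = 5). Vpreb3 went with Rag1 (r = 0.849, permutation p = 0.00145, adjusted 0.0109), although rho did not pass adjustment (rho = 0.758, permutation p = 0.0146, adjusted 0.0596) and r was 0.639 without the 2 farthest mice. With Vpreb1 it gave r = 0.602 (permutation p = 0.0663, adjusted 0.155), with rho = 0.455 (permutation p = 0.19, adjusted 0.357) and r = 0.514 without the 2 farthest mice. With Igll1 it gave r = 0.698 (permutation p = 0.0271, adjusted 0.0813), with rho = 0.491 (permutation p = 0.154, adjusted 0.301) and r = 0.19 without them. The difference between these correlations was not tested. With Cd79b it gave r = 0.854 (permutation p = 0.00278, adjusted 0.0156), with rho = 0.794 (permutation p = 0.00889, adjusted 0.045) and r = 0.635 without the 2 farthest mice. Ebf1 went with none of the other 9, its highest r being 0.469 with Cd79a (permutation p = 0.175, adjusted 0.256, rho = 0.164, permutation p = 0.655, adjusted 0.8), which turned to -0.517 without the 2 farthest mice.

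The genes whose levels were most like the mean of the 6 precursor genes over the 10 mice, outside the 10 described, were Ift22 (r = 0.926), St6gal1 (r = 0.913), Gstt2 (r = 0.895), Timm22 (r = 0.894), Akap12 (r = 0.884), Malsu1 (r = 0.878), Ei24 (r = 0.874) and Tmem70 (r = 0.872). They were ranked among 13841 genes, and no p is given. Their changes ran from -0.76 (Akap12) to -0.16 (Malsu1), a direction largely set by the choice, since the precursor mean they follow was itself lower in null mice (4.36 against 4.78). St6gal1 encodes a sialyltransferase that makes the ligand of the B cell protein Cd22. By the same measure Cd79a ranked 13, Cd79b 28 and Blnk 78, while Ebf1 ranked 2968 and the leukocyte gene Ptprc 9744.

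Other genes of the B lineage were read from the same fit, in lists written with earlier results of these data known, and 0 of them passed adjustment. Of 20 regulators of B cell development, 17 were lower and 3 higher in null mice, with a median of -0.21 and 6 lower at an unadjusted p under 0.05. Over all genes tested 60.0% were lower, 7.30% were lower at that threshold, and the median was -0.045, and the counts of the lists below are to be read against these shares. Bach2, a repressor needed for early B cells, stood at 9.62, 12.1, 9.15, 11.5 and 14.5 TPM in wild-type mice and at 6.58, 8.57, 6.34, 8.83 and 5.61 TPM in null mice. All 5 null mice lay below all 5 wild-type mice, as in 1.06% of all genes, with a change of -0.60 (SE 0.155, limma adjusted p = 0.283). The other 5 were Ikzf3, Tcf12, Pou2af1, Sox4 and Id3, with changes of -0.36, -0.26, -0.49, -0.48 and -0.61. Ikzf3 also had all 5 null mice below all 5 wild-type mice. Tcf3, the E protein itself, had means of 73.2 ± 11.8 and 71.7 ± 5.77 TPM (SD, n = 5, change -0.018). Of the 3 higher regulators Irf8 had the smallest p, with a change of 0.12 (limma adjusted p = 0.858).

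Of 16 genes of signalling at the pre-B receptor, 10 were lower and 6 higher, close to the 60.0% of all genes that were lower, and the median of -0.044 lay beside the -0.045 of all genes. Lower at an unadjusted p under 0.05 were 3: Cd72, an inhibitory surface protein of B cells, the kinase Blk and the kinase Prkcb. Cd72 stood at 52.3, 39.0, 46.2, 40.5 and 44.2 TPM in wild-type mice and at 26.2, 40.6, 38.1, 19.3 and 29.2 TPM in null mice. All null mice but mouse 2 lay below the wild-type range, and the change was -0.56 (SE 0.18, limma adjusted p = 0.324). The change was -0.48 for Blk and -0.27 for Prkcb. Signalling genes shared with myeloid cells had changes of -0.036 for Syk and 0.053 for Lyn, which had the smallest p among the higher genes (limma adjusted p = 0.934). Ighm, the heavy chain constant gene of IgM, averaged 1343 ± 681 and 1383 ± 609 TPM (SD, n = 5, change 0.065).

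Interleukin 7 and Flt3 signals support B cell precursors. Of 10 such genes 5 were lower and 5 higher, with a median of 0.0024 and 0 at an unadjusted p under 0.05. The change was -0.30 for the receptor gene Il7r, 0.17 for Flt3 and -0.33 for the feedback gene Socs1 (limma adjusted p = 0.687, 0.819 and 0.46). The gene of interleukin 7 itself, Il7, was listed with the stroma niche genes and is not among these 10. It had means of 2.16 ± 0.571 and 1.47 ± 0.45 TPM (SD, n = 5) in wild-type and null mice, a change of -0.35 (limma adjusted p = 0.491). DNA end joining seals the breaks that the recombinase makes in lymphocyte precursors, and it repairs other breaks in every cell type. Of 13 genes listed for recombination and end joining, 9 were lower and 4 higher, with a median of -0.053 and 0 at an unadjusted p under 0.05. The change was -0.34 for the ligase gene Lig4 and 0.12 for Hmgb2 (limma adjusted p = 0.487 and 0.827).

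Genes of later B cells went in both directions, and for mature B cells the shares were near those of all genes (60.0% lower, and 7.30% lower at an unadjusted p under 0.05). Of 12 genes of mature B cells, 8 were lower and 4 higher, with a median of -0.14 and 1 lower at an unadjusted p under 0.05, the survival receptor gene Tnfrsf13c (change -0.40, SE 0.147, limma adjusted p = 0.35). Cd180 had the smallest p among the higher ones (change 0.14, limma adjusted p = 0.792). The list's mean log2 level was 3.67, 4.06, 3.90, 3.75 and 3.24 in wild-type mice 1 to 5 and 3.09, 3.51, 3.95, 3.51 and 3.87 in null mice 1 to 5. Wild-type mouse 5 and null mouse 1 were lowest there, although wild-type mouse 5 had the second highest precursor mean, 4.98, of the wild-type mice. Of 9 plasma cell genes 8 were tested, of which 7 were lower and 1 higher, with a median of -0.21. Sdc1, a proteoglycan of plasma cells and of other tissues, had a change of -0.48 (SE 0.197, limma adjusted p = 0.386), and Derl3 one of 0.15 (limma adjusted p = 0.879).

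**Figure D3:**
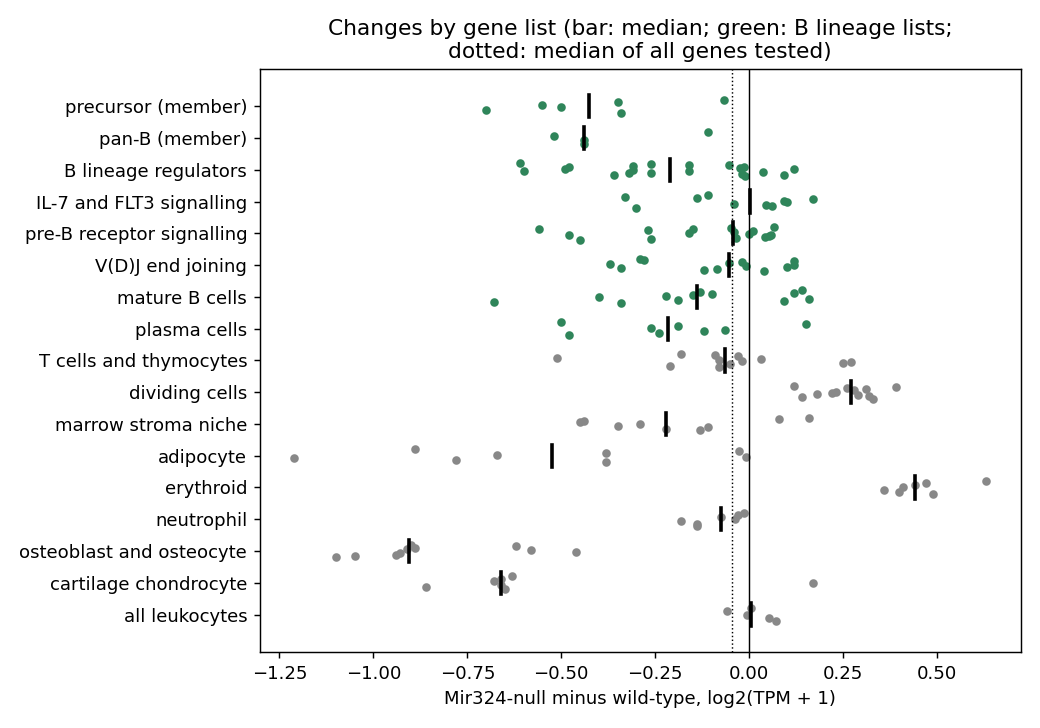
Change in Mir324-null against wild-type mice on the log2(TPM + 1) scale for each gene tested in each list, with 1 point per gene and a bar at the list's median. B lineage lists are in green, other lists in grey, and the dotted line is the median of all genes tested. The medians of the precursor and pan-B genes lie at -0.43 and -0.44, between those of the leukocyte genes (0.0037) and the osteoblast genes (-0.90).

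Markers of some other cell types also had lower or higher estimates in null mice, and 0 of the markers passed adjustment. All 10 osteoblast and osteocyte genes were lower in null mice, 9 of them at an unadjusted p under 0.05, with a median of -0.90, and they summed to 8306 to 16866 TPM in wild-type and 4240 to 8348 TPM in null mice. The gene with the smallest p was Phex, at -0.89, and its groups did not overlap. Of 7 cartilage genes 6 were lower, with a median of -0.66 and the smallest p in Acan, at -0.86, and the gene that was higher was Comp, at 0.17. They summed to 1964 to 6208 and 1652 to 2956 TPM. The 7 erythroid genes were all higher, with a median of 0.44, a sum of 112640 to 198844 TPM in wild-type and 159238 to 263631 TPM in null mice, and the smallest p in Slc4a1, at 0.63. The 12 genes of dividing cells were all higher, with a median of 0.27, sums of 1435 to 1960 and 1852 to 2059 TPM, and the smallest p in Rrm2, at 0.39. Against these, 7 neutrophil genes had a median of -0.075, the smallest p in Camp, at -0.18, with sums of 55632 to 109003 and 54585 to 111431 TPM. The 5 genes of all leukocytes had a median of 0.0037, with sums of 1272 to 1923 and 1314 to 1842 TPM, and the smallest p in Cd53 on the lower side (-0.06) and Ptprc on the higher (0.071). The 12 T cell genes had a median of -0.065, with sums of 53.6 to 126 and 71.8 to 86.3 TPM. Among them Cd5 stood at 1.4 to 3.17 TPM in wild-type and 1 to 1.38 TPM in null mice, close to the level needed for testing. Its groups did not overlap, as in 1.06% of all genes tested, and its change was -0.51 (limma adjusted p = 0.342). Cd247 had the smallest p on the higher side, at 0.25. The part of these cell types in the changes of the B lineage genes was not tested. The covariates of the fits given next moved with genotype, so those fits cannot separate a cell type from genotype. The osteoblast mean was 8.56 ± 0.397 in wild-type and 7.72 ± 0.42 in null mice on the log2 scale (SD, n = 5). The erythroid mean was 12.41 ± 0.374 and 12.87 ± 0.254 in the same order.

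With the mean of the osteoblast genes as a covariate, 0 of the 10 genes had an unadjusted p under 0.05 and 9 of the 10 were lower. All genes moved in that fit: 35.6% were lower, with a median of 0.07, against 60% and -0.045 without the covariate. Lower at an unadjusted p under 0.05 were 106 of the 13841 genes, against 1011 without the covariate. The precursor median was then -0.35, against -0.43 without the covariate, and the pan-B median -0.22, against -0.44. The change was closer to 0 for Vpreb3 (-0.42) and Pax5 (-0.14) and above 0 for Ebf1 (0.15), while that of Igll1 (-0.56) and Dntt (-0.22) was farther below 0. With the erythroid mean as a covariate, 3 of the 10 had an unadjusted p under 0.05 and 9 of the 10 were lower. Of all genes 34.2% were lower there, 245 of them at that threshold, with a median of 0.086. The estimates of the 10 genes were of similar size or larger in most, with a precursor median of -0.56 and a pan-B median of -0.43. Igll1 stood at -0.75 and Cd79a and Cd79b at -0.58, while Rag2 (-0.22), Pax5 (-0.28) and Ebf1 (0.068) lay nearer 0 or above it. Levels were also set relative to the 5 leukocyte genes, a choice made after the values were seen. Then 10 of the 10 remained lower, with medians of -0.44 and -0.45 for precursor and pan-B genes, and 1 had an unadjusted p under 0.05. On that scale 62.4% of all genes were lower, 365 of them at that threshold, with a median of -0.057. With TPM rescaled without the haemoglobin genes, the median of all genes was 0.036 and 42.5% of them were lower. Of the 10 genes 9 were lower, Dntt being the exception at 0.021. Left out 1 at a time, single mice moved the number of the 10 genes at an unadjusted p under 0.05 from 5 to between 2 and 7. Among all 13841 genes, the number lower at that threshold moved from 1011 to between 620 and 1355. The count among the 10 was 2 without wild-type mouse 3 or without null mouse 1 or 4, 3 without wild-type mouse 1, and 7 without null mouse 3. Dntt and Ebf1 were the genes whose direction turned in such fits, Dntt without wild-type mouse 2 or 3 or null mouse 1 or 4, and Ebf1 without null mouse 1.

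**Figure D4:**
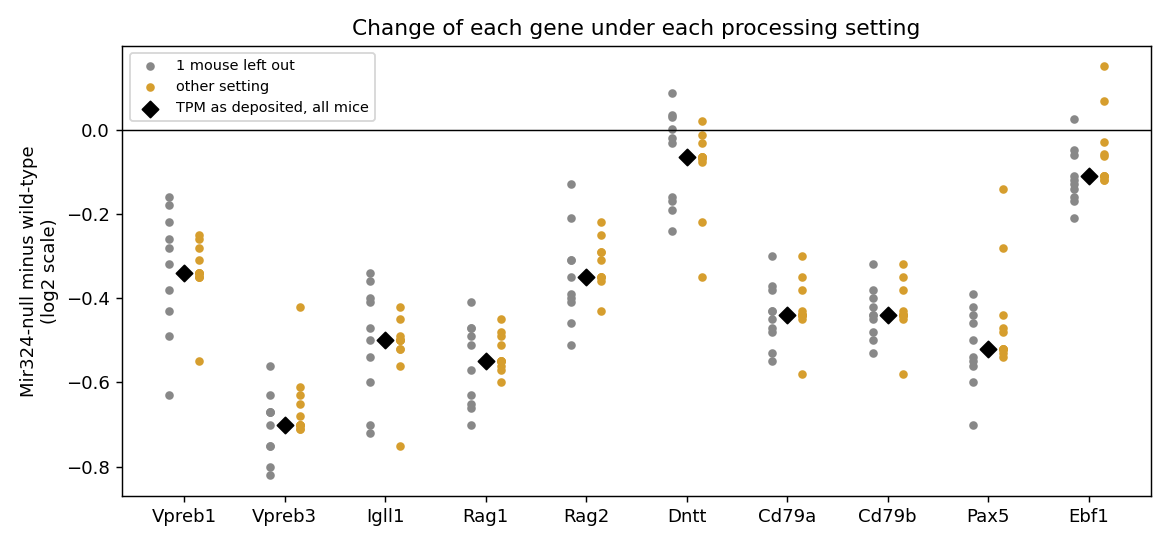
Change of each gene in Mir324-null against wild-type mice on a log2 scale, with all mice and TPM as deposited (black), with 1 mouse left out (grey) and under other settings (yellow). Vpreb1, Vpreb3, Igll1, Rag1, Rag2, Cd79a, Cd79b and Pax5 stay below 0 in every setting shown, while Dntt and Ebf1 cross it.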

How the data were processed

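RNA was sequenced from knee cartilage of 10 mice, 5 per genotype, and the authors deposited TPM values per transcript, quantified with kallisto per the submitters' processing notes. Its version, index, read layout and use of strand were not stated; the notes also name DESeq2, whose role is not given, and GRCh38, a human build, although the identifiers are those of mouse transcripts. TPM holds no counts, so depth and counting intervals are unknown, and TPM is relative, so abundant transcripts reduce the values of the rest.

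Identifiers were matched without version to GENCODE M21 (GRCm38): 115440 of 116912 matched, and the 1472 others held 0.275% to 0.356% of the TPM. Values were summed to 35705 genes, and the 13841 with a mean of at least 1 TPM were tested as log2(TPM + 1), a scale that understates changes of low genes. The test was limma 3.58.1 in R 4.3.3 (lmFit, eBayes with trend), two-sided, over all 10 mice, with Benjamini-Hochberg adjustment over all genes tested and a threshold of 0.05. Single genes also had a two-sided exact permutation test over mice, whose smallest p is 0.00794. Correlations had two-sided permutation tests with 100000 resamples over all 10 mice, without regard to genotype. Intervals are 95% intervals from limma. Python 3.11.15, with scipy 1.17.1, numpy 2.4.6, pandas 2.3.3 and matplotlib 3.10.9, did the rest, and the fit was tested on simulated data.

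The 10 genes and all lists were chosen with earlier results of these data known. Named genes were the 10, Vpreb2, the gene with the smallest p in each direction in each list, and the 8 genes most correlated with the precursor mean. Genes outside this rule, such as Tcf3, Syk, Ighm and Il7r, and those listed at an unadjusted p under 0.05, were chosen after their values were seen. Alternatives covered scaling, pseudocount, filter, trend, covariates, a replicate block and each mouse left out.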

Additional observations from a re-analysis of the deposited data

How the results depend on the processing

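The count of genes with an adjusted p under 0.05 was 0 under every setting with all mice and between 0 and 1 with 1 mouse left out, 1 without wild-type mouse 3, wild-type mouse 4 or null mouse 1, and for the 10 genes it was 0 throughout. The number of the 10 at an unadjusted p under 0.05 was 5 as reported, 3 after median-ratio scaling and 1 without the haemoglobin genes. It was 0 with the osteoblast covariate, 3 with the erythroid covariate, 1 relative to the leukocyte genes and 2 in the exact permutation test. With 1 mouse left out it lay between 2 and 7, and the cause was not tested. Of the 13841 genes, 1011 were lower at that threshold as reported and 888 after median-ratio scaling, and 581 of 13835 without the haemoglobin genes. That number was 106 with the osteoblast covariate, 245 with the erythroid covariate and 365 relative to the leukocyte genes. It lay between 620 and 1355 with 1 mouse left out. Changes turned above 0 for Dntt without the haemoglobin genes (0.021), without wild-type mouse 2 (0.034) or 3 (0.03), and without null mouse 1 (0.086) or 4 (0.0016), and for Ebf1 with the osteoblast covariate (0.15), with the erythroid covariate (0.068) and without null mouse 1 (0.024). With 1 mouse left out, Dntt ranged from -0.24 to 0.086 and Ebf1 from -0.21 to 0.024. The precursor median stayed between -0.63 and -0.26 and the pan-B median between -0.53 and -0.22. Their difference lay between -0.14 and 0.12, within the spread between mice of 0.256. The share of lower genes among those at an unadjusted p under 0.05 was 63.1% as reported, 50.4% after median-ratio scaling, 51.2% after quantile normalization, 32.3% without the haemoglobin genes, 16.6% with the osteoblast covariate and 20.1% with the erythroid covariate. Rag2 was not tested at a mean of at least 5 TPM. With the replicate block, 5 of the 10 genes had an unadjusted p under 0.05 (Igll1 in, Rag1 out) and 0 an adjusted p under 0.05. Over all genes tested, same-numbered mice correlated between -0.144 and 0.0564 in their deviations from the genotype mean. The labels do not say whether the numbers pair the mice, and these correlations cannot settle it. Depth is unknown, so the lowest values, such as those of Rag2, carry an unknown counting error.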
